A study of Homo sapiens with 5 samples.

Results

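EZH2 binding was mapped by chromatin immunoprecipitation and sequencing (ChIP-seq) in HT1376, an established human bladder carcinoma cell line. One group received the vehicle DMSO and the other 250 nM CPI-0209, an EZH2 inhibitor, for 8 days. All groups are the same line, and the labels name no genetic change made to it. The labels also mention a 4-day treatment and an H3K27ac antibody, and no sample title names either. The series holds 5 samples, of which 4 ChIP libraries have an interval list (EZH2 and H3K27me3, each with DMSO and with CPI-0209) and 1 input library was not used here. The EZH2 lists hold 67833 of the 128040 rows in the series, 24311 in DMSO and 43522 in CPI-0209. Rows that overlapped within a list were merged into domains, 18639 in DMSO and 27406 in CPI-0209. DMSO and CPI-0209 domains that shared at least 1 bp were then joined into loci, which gave 27736 EZH2 loci, and these are the members described. A locus covered in both lists was called widened or narrowed where its covered length differed by at least 1.5-fold, and similar otherwise. A locus covered in a single list was called new (CPI-0209) or no longer called (DMSO).

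Polycomb repressive complex 2 (PRC2) places methyl groups on lysine 27 of histone H3, and EZH2 is its enzyme. Its end product, H3K27me3, marks silent chromatin, and in mammalian cells PRC2 is found chiefly at CpG islands, stretches rich in the dinucleotide CpG that lie at many gene starts. Silent developmental regulators are the best known targets, and catalytic inhibitors of EZH2 block methylation by the enzyme.

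With 1 library a group there was no replicate check, and no test between DMSO and CPI-0209 was made. The lists give positions without reads or scores, so depth is unknown, and a missing call does not show that EZH2 was absent. Limits in brackets are exact (Clopper-Pearson) 95% binomial limits, which cover counting error only, and neighbouring loci are not independent. The CPI-0209 list held more overlapping rows, with 50.8% of its covered length under 2 rows against 17.8% in DMSO, and the sources used here do not state what the rows of a list combine. The part of this difference in the results was not tested.

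The 8 sequences that follow are gene starts from similar, narrowed and new loci, loci no longer called and a gene without EZH2, running from 250 bases before to 50 bases from the annotated start, read 5′ to 3′ on the gene's strand from RefSeq on GRCh38.p14, the assembly of hg38. Every CpG is in capitals. They were picked after the values were seen, as starts with contrasting EZH2 outcomes and CpG counts, and not as typical of their class. COL4A1 (chr13:110307108-110307407, minus strand, 45 CpG) encodes a basement membrane collagen chain and lay under a wide locus of similar width. ID4 (chr6:19837120-19837419, plus strand, 39 CpG), an inhibitor of helix-loop-helix transcription factors, and AHR (chr7:17298402-17298701, plus strand, 30 CpG), the receptor for dioxin-like compounds, lay in strongly narrowed loci.
COL4A1: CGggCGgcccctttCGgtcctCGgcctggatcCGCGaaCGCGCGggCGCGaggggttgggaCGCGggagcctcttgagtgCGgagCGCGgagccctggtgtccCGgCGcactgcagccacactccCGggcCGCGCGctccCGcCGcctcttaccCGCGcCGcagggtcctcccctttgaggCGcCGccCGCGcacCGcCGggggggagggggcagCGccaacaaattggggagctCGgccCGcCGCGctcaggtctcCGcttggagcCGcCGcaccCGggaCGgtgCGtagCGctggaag
ID4: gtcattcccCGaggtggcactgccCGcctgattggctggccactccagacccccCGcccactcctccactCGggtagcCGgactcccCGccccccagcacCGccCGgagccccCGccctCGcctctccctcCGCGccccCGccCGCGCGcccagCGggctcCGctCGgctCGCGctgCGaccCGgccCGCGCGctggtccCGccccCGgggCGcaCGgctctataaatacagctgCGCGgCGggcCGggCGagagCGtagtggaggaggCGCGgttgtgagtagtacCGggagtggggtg
AHR: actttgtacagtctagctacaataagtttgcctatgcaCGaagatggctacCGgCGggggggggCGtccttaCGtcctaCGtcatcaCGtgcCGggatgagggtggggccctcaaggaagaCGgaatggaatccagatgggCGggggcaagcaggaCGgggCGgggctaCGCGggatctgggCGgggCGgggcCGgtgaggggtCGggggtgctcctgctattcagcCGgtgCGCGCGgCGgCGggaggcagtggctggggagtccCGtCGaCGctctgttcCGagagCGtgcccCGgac
PLXNA1 (chr3:126982865-126983164, plus strand, 54 CpG), a semaphorin receptor, and E2F3 (chr6:20401629-20401928, plus strand, 20 CpG), a cell cycle transcription factor, had new EZH2. PMM2 (chr16:8797589-8797888, plus strand, 26 CpG), a glycosylation enzyme, and EHF (chr11:34624007-34624306, plus strand, 8 CpG), an epithelial transcription factor, had loci no longer called. KRT5 (chr12:52520345-52520644, minus strand, 7 CpG), a basal keratin, had no EZH2 at its ends in either list.
PLXNA1: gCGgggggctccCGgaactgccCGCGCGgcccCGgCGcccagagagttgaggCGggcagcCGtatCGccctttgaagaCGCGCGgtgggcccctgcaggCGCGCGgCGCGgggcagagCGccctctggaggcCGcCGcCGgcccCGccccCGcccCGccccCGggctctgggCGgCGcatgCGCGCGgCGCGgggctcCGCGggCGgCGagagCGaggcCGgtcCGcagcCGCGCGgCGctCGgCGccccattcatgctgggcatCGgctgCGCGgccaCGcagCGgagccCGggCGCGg
E2F3: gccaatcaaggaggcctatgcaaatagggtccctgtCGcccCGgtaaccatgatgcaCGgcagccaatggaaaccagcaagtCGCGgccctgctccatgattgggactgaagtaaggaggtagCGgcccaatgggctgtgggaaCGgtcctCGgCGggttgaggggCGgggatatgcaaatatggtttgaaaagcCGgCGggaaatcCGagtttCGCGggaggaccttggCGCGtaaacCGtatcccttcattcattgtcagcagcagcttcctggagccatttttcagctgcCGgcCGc
PMM2: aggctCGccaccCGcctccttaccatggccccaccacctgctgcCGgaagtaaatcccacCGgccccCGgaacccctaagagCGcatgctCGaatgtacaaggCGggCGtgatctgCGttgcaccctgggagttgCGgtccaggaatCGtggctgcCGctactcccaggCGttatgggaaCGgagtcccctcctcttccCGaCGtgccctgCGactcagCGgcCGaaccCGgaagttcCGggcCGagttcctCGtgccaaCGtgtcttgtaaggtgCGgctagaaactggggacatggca
EHF: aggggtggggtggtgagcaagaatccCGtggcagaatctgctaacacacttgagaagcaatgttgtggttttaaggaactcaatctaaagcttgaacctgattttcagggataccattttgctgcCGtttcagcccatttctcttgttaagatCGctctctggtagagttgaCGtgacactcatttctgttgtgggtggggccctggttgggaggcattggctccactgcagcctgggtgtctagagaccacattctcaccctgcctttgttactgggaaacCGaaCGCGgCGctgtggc
KRT5: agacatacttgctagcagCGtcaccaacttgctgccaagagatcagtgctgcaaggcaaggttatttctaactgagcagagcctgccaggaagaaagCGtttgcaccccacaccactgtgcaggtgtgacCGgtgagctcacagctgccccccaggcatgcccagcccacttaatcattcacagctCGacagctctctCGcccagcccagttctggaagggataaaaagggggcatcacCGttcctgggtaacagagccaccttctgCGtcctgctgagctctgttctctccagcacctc

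New loci were the most numerous class and similar loci held most of the covered length. There were 10671 new loci (38.5% of all), 9459 similar (34.1%), 3496 narrowed (12.6%), 2328 no longer called (8.39%) and 1782 widened (6.42%). The similar loci summed to 140.8 Mb under DMSO and 142.8 Mb under CPI-0209, with medians of 8.0 and 7.8 kb. New loci were short, with a median of 3.2 kb and 47.7 Mb in all, and loci no longer called had a median of 4.4 kb and 13.3 Mb. Narrowed loci went from a median of 6.2 kb to 2.8 kb, and widened loci from 4.6 kb to 9.4 kb. The CPI-0209 list thus held many short additional calls. Like lengths in the similar class follow from its definition. In all, 151.2 Mb was covered in both lists, 42.2 Mb in DMSO alone and 75.1 Mb in CPI-0209 alone. The narrowest CPI-0209 domains were also dropped until both lists had the same length. New loci then numbered 3775, narrowed loci 961 and loci no longer called 7781, so the order of new and no longer called turned. Dropping CPI-0209 domains alone can only lower the count of new loci and raise that of loci no longer called. Over stretches under 2 rows there were 11704 new loci, 2256 similar, 1202 widened, 1084 no longer called and 711 narrowed.

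**Figure D1:**
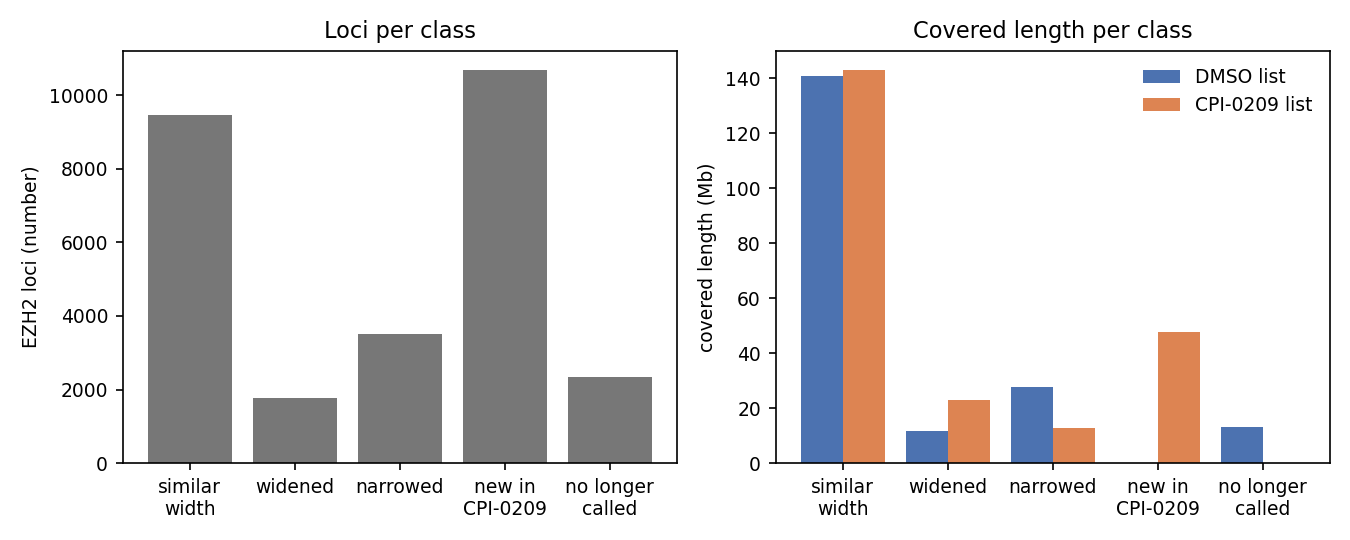
Number of EZH2 loci (left) and covered length in Mb (right, DMSO and CPI-0209 lists side by side) for the 5 classes, from 1 library a condition. New loci outnumber the rest at 10671, while similar loci hold 140.8 and 142.8 Mb.

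Width separated the domains that had a counterpart in the other list from those that had none. In DMSO, 29.0% (25.8 to 32.3) of domains under 2 kb had no CPI-0209 counterpart, against 7 of 333 domains of 50 kb or wider (2.10%, 0.849 to 4.28). In CPI-0209, 63.5% (62.0 to 65.0) of domains under 2 kb had no DMSO counterpart, against 7 of 430 of 50 kb or wider (1.63%, 0.657 to 3.33). By its length alone, a wide domain is more likely to meet the other list at 1 bp. Of the 14737 loci covered in both lists, 12392 had 1 domain in each, 1110 had 1 DMSO domain in several CPI-0209 pieces and 687 had several DMSO domains in 1 CPI-0209 domain. Among the 3340 narrowed loci with 1 domain in each list, both edges lay further in at 2481, and among the 1576 such widened loci both edges lay further out at 980.

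Loci of a single list seldom held overlapping rows. A stretch under 2 rows of the same list was present in 11.5% (10.9 to 12.1) of new loci and 3.48% of loci no longer called. For similar, widened and narrowed loci the shares were 77.6%, 69.7% and 42.7% in CPI-0209, and 33.3%, 16.3% and 35.5% in DMSO. A wider locus has more room for such a stretch, and similar loci had a higher median length than loci of a single list. The nearest domain of the other list was a median of 22.2 kb from a new locus and 30.6 kb from a locus no longer called. Within 5 kb of a domain of the other list lay 18.1% of new loci and 13.3% of those no longer called.

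The classes differed in where they lay. Narrowed loci were the most often within 2 kb of the end of a protein-coding gene record (66.6%, 65.0 to 68.2) and loci no longer called the least often (20.7%, 19.1 to 22.4). Similar (56.0%), widened (53.3%) and new loci (39.3%, 38.4 to 40.3) were between them, beside 47.8% over all loci. The median distance to a coding gene end was 0 kb for similar, widened and narrowed loci, 8.04 kb for new loci and 20.8 kb for loci no longer called. Intergenic positions, outside coding genes and their end windows, held 42.6% of loci no longer called, 34.6% of new and 19.3% of narrowed loci. Here a gene end can be the start or the far end of a gene.

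H3K27me3, which played no part in the classes, ordered them differently. It was called on 71.7% (70.7 to 72.6) of similar loci in DMSO, 62.7% of widened, 50.1% (49.2 to 51.1) of new, 33.0% (31.5 to 34.6) of narrowed and 18.6% (17.0 to 20.2) of loci no longer called. Over all loci the share was 53.5%, which new loci were near. In CPI-0209 cells these shares were 66.1%, 53.5%, 18.9%, 24.7% and 5.46%, and 36.8% over all loci. Similar loci on DMSO H3K27me3 still met the mark in CPI-0209 at 91.8%, and new loci on it at 36.4% (35.1 to 37.7). Here 1 shared bp is enough, so these shares do not give the length of the mark that remained within a locus. The H3K27me3 list itself was shorter with CPI-0209, its domains summing to 113.8 Mb against 315.1 Mb with DMSO. A wider locus has more room to meet a mark, and the similar loci had a higher median length than narrowed loci, new loci and loci no longer called.

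**Figure D2:**
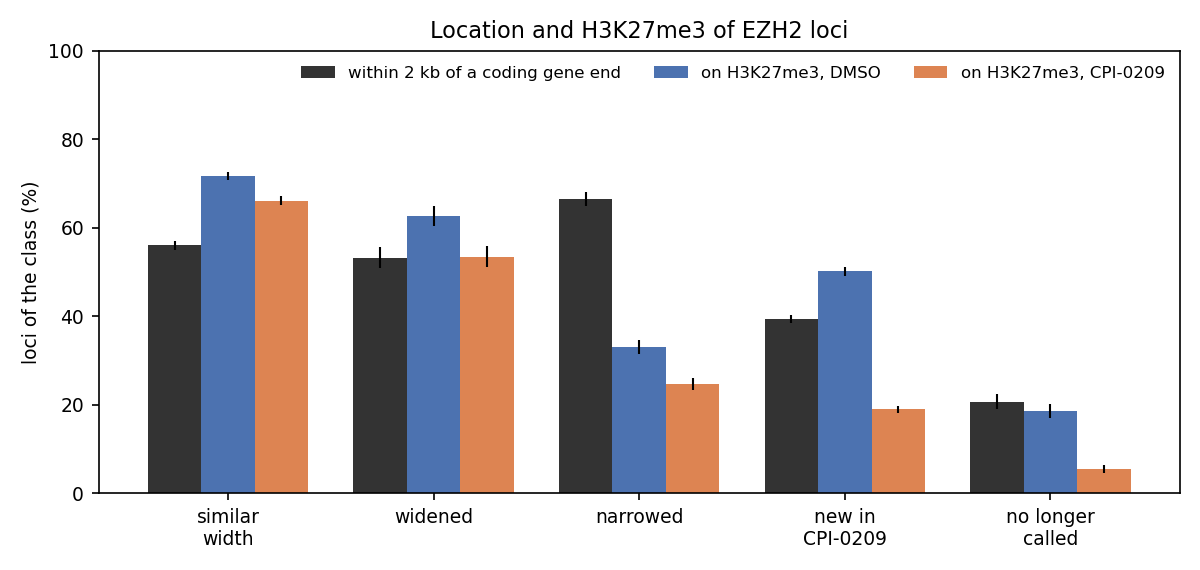
Share of the loci of each class (percent) within 2 kb of a protein-coding gene end and on H3K27me3 of DMSO or CPI-0209 cells, with exact 95% limits for counting error. Narrowed loci have the highest share near gene ends (66.6%) and loci no longer called the lowest on H3K27me3 (18.6% and 5.46%).

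New loci fell into different surroundings by location. Of the 4198 new loci near coding gene ends, 23.4% (22.1 to 24.7) were on DMSO H3K27me3, whereas 62.4% of the 2778 in gene bodies and 71.3% (69.8 to 72.7) of the 3695 intergenic ones were. Put the other way, 60.4% of new loci without the mark lay near a gene end and 18.4% of those with it did. For similar loci these shares near a gene end were 80.5% without the mark and 46.4% with it. Loci no longer called mostly lacked the mark in every location, at 12% on H3K27me3 near gene ends, 16.8% in gene bodies and 23.2% in intergenic sequence.

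At gene starts EZH2 calls were more frequent in CPI-0209. Annotated starts with strand were at hand for 15812 of 19974 protein-coding genes (79.2%), none of them on chromosome 8. EZH2 covered 48.3% of these starts in DMSO and 66.7% in CPI-0209. The difference was largest within 1 kb of the start among the positions sampled. At 3 kb upstream the shares were 21.3% and 21.7%, and at 3 kb downstream 24.4% and 24.5%. Far from the start, 50 kb upstream, they were 12.4% and 15.2%. Starts without H3K27me3 in DMSO went from 41.9% to 61.5% and starts with it from 68.2% to 82.7%, so the higher share was seen in both sets. With the CPI-0209 list reduced to its widest domains, so that its length matched DMSO, the ratio of the shares turned from 1.38 to 0.611. That reduction takes narrow domains from the CPI-0209 list alone. Over stretches under 2 rows of the same list the shares were 19.8% and 29.8%. There the covered length in CPI-0209 was 3.34 times that in DMSO, against 1.17 times with all rows. A longer list has more room to meet a start, and the part of length in these shares was not tested.

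**Figure D3:**
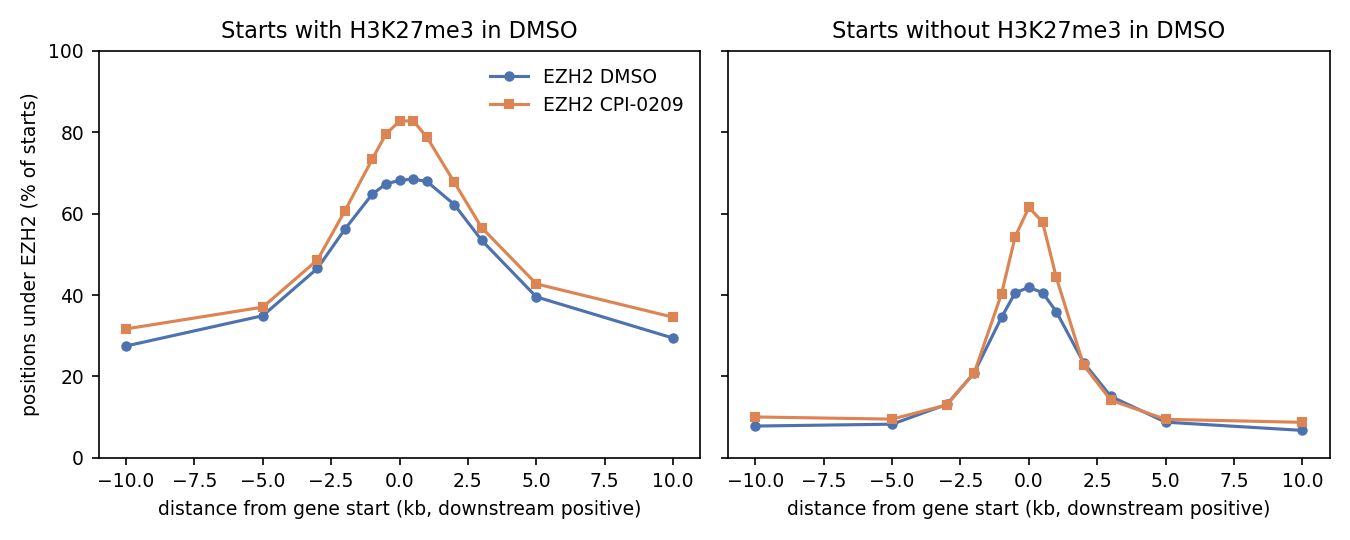
Share of gene starts (percent) whose position at a given distance (kb, downstream positive) was under EZH2 in DMSO or CPI-0209, for starts with and without H3K27me3 in DMSO. The curves part at the start itself (41.9% and 61.5% without the mark). In that set they lie close at 2 kb upstream (20.9% and 20.8%) and downstream (23.4% and 22.8%).

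Starts with EZH2 in both lists or in CPI-0209 only had more CpG than starts with EZH2 in neither. Within 2 kb of the start, EZH2 was called in both lists at 7580 genes (47.9%), in CPI-0209 only at 3389 (21.4%), in DMSO only at 410 (2.59%) and in neither at 4433 (28.0%). The 300 bases at the start held a median of 26 CpG for both lists, 27 for CPI-0209 only, 20 for DMSO only and 5 for neither, beside 22 over all starts. The COL4A1 and PLXNA1 sequences above are rich examples and KRT5 a poor one. H3K27me3 was called in DMSO at 17.6% of starts with EZH2 in CPI-0209 only and at 36.2% of those with EZH2 in both lists. Without H3K27me3 the medians were 27 CpG in both lists, 28 in CPI-0209 only, 20 in DMSO only and 5 in neither. With H3K27me3 they were 24, 17.5, 6 and 4.

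CGCG was commoner and TATAAA rarer where EZH2 was called in both lists or in CPI-0209 only. The letters CGCG, which read the same on both strands and contain CpG themselves, were present in 80.1% of starts with EZH2 in both lists, 78.3% in CPI-0209 only, 61.2% in DMSO only and 29.9% in neither, against 65.2% of all 15812 windows. TATAAA, searched on both strands, was present in 6.50%, 4.99%, 10.5% and 18.5%, against 9.64% of all windows. These are descriptions of letters in a 300-base window.

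**Figure D4:**
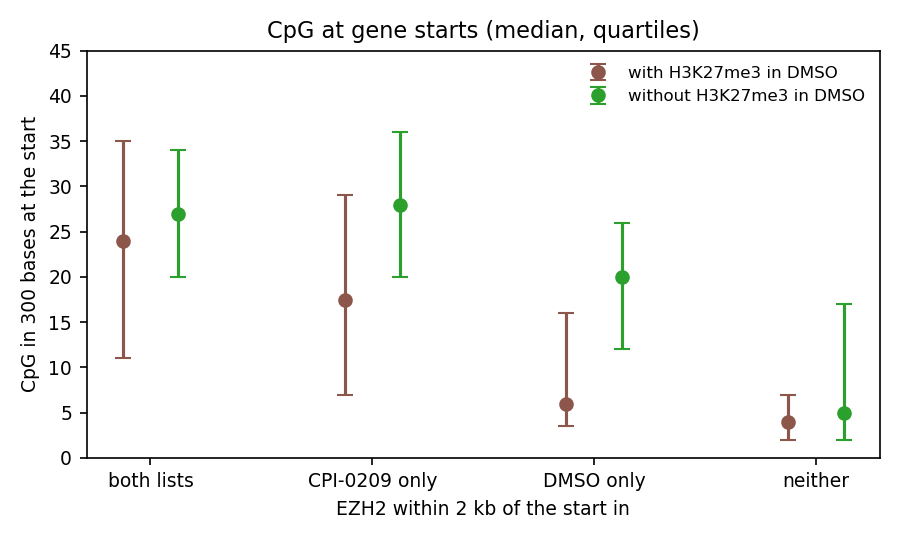
CpG count in 300 bases at the gene start (median and quartiles) by the list or lists with EZH2 within 2 kb, split by H3K27me3 in DMSO. Starts without EZH2 have medians of 4 and 5 CpG. Starts with EZH2 in CPI-0209 only and no H3K27me3 in DMSO have a median of 28.

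Gene starts under EZH2 in DMSO mostly stayed covered in narrowed loci. Of 2239 gene starts under EZH2 in narrowed loci in DMSO, 2166 (96.7%, 95.9 to 97.4) were still covered in CPI-0209, although 44.5% of the DMSO length of these loci was. Midpoints of the DMSO domains in narrowed loci were still covered at 70.2% (68.7 to 71.7), and far ends of genes over 2 kb from any start at 35.1% (28.6 to 41.9, 74 of 211). The share for starts was 97.2% without H3K27me3 and 93.9% with it. In 1507 narrowed loci with 1 domain in each list and a single start under both, the downstream edge had moved in further at 850 and the upstream edge at 596, with median shifts of −1.4 kb downstream and −1.2 kb upstream and means of −2.31 and −1.67 kb. The share of starts still covered was 99.0% in similar and 99.7% in widened loci. Narrowed loci away from a gene start are not part of the share for starts.

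The widest similar loci lay at genes under broad H3K27me3. They open a set of 25 named loci, of which 4 kept their class over stretches under 2 rows of the same list. Beside SOX4, a developmental transcription factor, the locus chr6:21552201-21851000 went from 244.0 to 298.8 kb, and its neighbour at CDKAL1 (chr6:21153801-21551000) from 358.2 to 397.2 kb. The COL4A1 and COL4A2 genes, which encode collagen IV chains and diverge from the start printed above, shared chr13:110253601-110530200 with RAB20, at 276.6 and 275.2 kb. SOX8, SSTR5 and C1QTNF8 lay on chr16:962201-1228800 with 264.4 and 266.6 kb, and CYTH4, ELFN2 and MFNG on chr22:37253401-37509400 with 215.2 and 255.8 kb. DMSO H3K27me3 covered between 85.4% and 100% of the joint span of each of these 5 loci. In CPI-0209 it covered 36.7% at SOX4, 47.6% at CDKAL1 and 97.3% at SOX8. CDKAL1 was classed as new, and the COL4A1 and CYTH4 loci as widened, over stretches under 2 rows.

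The largest widening was at SOCS1, a feedback inhibitor of cytokine signalling, with the sperm chromatin genes TNP2 and PRM3. The locus (chr16:11165601-11380000) went from 104.2 kb to 214.4 kb, the DMSO domain did not reach the ends of SOCS1, and DMSO H3K27me3 covered 21.1% of it. NOTCH1, the signalling receptor, lay in a locus (chr9:136496201-136560600) that went from 15.2 to 64.4 kb. The selenocysteine elongation factor gene EEFSEC (16.8 and 52.6 kb), the CPSF1, SLC39A4 and VPS28 locus (26.8 and 64.6 kb) and the GSDMD, MROH6 and NAPRT locus (59.2 and 95.0 kb) followed. DMSO H3K27me3 covered 0% of these 4 loci. With gaps under 5 kb joined the NOTCH1 locus was similar, and with 2-fold in place of 1.5-fold the GSDMD locus was similar. With an overlap of 50% of the narrower domain the EEFSEC locus was new. Over stretches under 2 rows NOTCH1 was classed as no longer called, SOCS1 and EEFSEC as new and GSDMD as similar.

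The largest narrowing was at ID4, where the locus chr6:19771001-19938600 went from 167.6 kb to 15.4 kb. At AHR the domain around the start (chr7:17244801-17327200) went from 82.4 kb to 11.0 kb, and the adjoining domain over the rest of the gene (chr7:17328201-17420000, 91.8 kb) was no longer called. The adaptor gene BCAR3 and its neighbour FNBP1L shared a locus that went from 97.6 to 30.6 kb. BZW2 and ANKMY2 shared 82.4 and 19.0 kb, and ZC3H7A and the ribosome biogenesis gene RSL1D1 shared 72.8 and 10.4 kb. DMSO H3K27me3 covered 18.1% of the ID4 locus and 0% of the other 4. The AHR locus was classed as new and the BZW2 locus as no longer called over stretches under 2 rows. The AHR sequence above holds 30 CpG, against a median of 27 over the 2281 starts whose locus was narrowed.

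The widest new locus near a coding gene was at E2F3 (chr6:20286401-20429600), with 143.2 kb in CPI-0209 and DMSO H3K27me3 on 81.8% of it. The next was at UBE2V1, a ubiquitin-conjugating enzyme variant, and its read-through record PEDS1-UBE2V1 (80.6 kb, 42.7%), which also had other DMSO domains at their ends. The PLXNA1 locus (48.4 kb) had 0% of its length under the mark. The locus of TIE1, an endothelial receptor (44.0 kb), had 27.7%. The locus of C6orf15, PSORS1C2 and CDSN, a skin adhesion protein (39.8 kb), had 0% in DMSO and 26.1% in CPI-0209. With gaps under 5 kb joined the TIE1 locus became widened.

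Among loci no longer called near coding genes, the 5 widest all lacked H3K27me3 in both conditions. After the AHR locus they lay at TRIT1, a tRNA-modifying enzyme (46.6 kb), TUFT1, an enamel protein (32.2 kb), TMEM186 and PMM2 (28.4 kb), and the uncharacterised LOC124904962 (28.0 kb). AHR, TRIT1, TUFT1 and PMM2 still had another CPI-0209 domain at an end, of 11.0, 4.6, 17.8 and 31.2 kb. The AHR and TUFT1 loci became narrowed when gaps under 5 kb were joined.

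Many loci that differed by 30 kb or more lay within 5 Mb of another. There were 82 such loci, 49 longer and 33 shorter in CPI-0209. Joining those within 5 Mb of each other gave 31 segments, of which 10 held 3 or more and 55 loci together. Whether wide loci without such a difference lie as close was not tested. In chr7:16628201-17729600, which holds BZW2 and AHR, all 8 were shorter, and EZH2 went from 0.598 Mb to 0.032 Mb with 5.02% of the DMSO length also covered in CPI-0209. In chr1:91850201-94750400, with BCAR3 and FNBP1L, all 5 were shorter, from 0.772 to 0.288 Mb of covered length. In chr5:10436201-16926600 all 5 were longer, from 0.570 to 0.808 Mb, and in chr20:44611201-50080200 all 4 were longer, from 1.27 to 2.02 Mb. Mixed segments were chr16:8518401-12463600, with SOCS1 and RSL1D1 (6 longer and 4 shorter), chr1:39809601-43554800, with TRIT1 and TIE1 (5 and 3), and chr6:17381001-21851000, with ID4, E2F3, CDKAL1 and SOX4 (3 and 3). In the last of these the widest locus no longer called (chr6:19253001-19482600, 229.6 kb, no H3K27me3) lay 355 kb from ID4.

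Genes were then assigned the class of the widest locus within 2 kb of either end. Over all 19974 protein-coding genes, 32.6% were similar, 5.99% widened, 13.6% narrowed, 19.4% new and 2.43% no longer called. EZH2 was called at an end in CPI-0209 only at 19.5%, in DMSO only at 2.63% and in neither list at 25.9%, which makes 54.6% with EZH2 in DMSO and 71.5% in CPI-0209. H3K27me3 was called at an end of 31.3% in DMSO and 21.7% in CPI-0209. These are the background for the gene lists that follow, which were described by counts.

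Developmental regulators stood in the similar class, which held 32.6% of all genes. All 39 HOX genes, which set position along the body axis, and 75 of 83 other developmental transcription factors did, with 4 of the latter widened (DLX1, DLX2, WT1 and OTX1), 2 new (PAX8 and SOX11), 0 narrowed and 2 without EZH2 (TBX18 and SOX10). The HOX genes lie in 4 clusters and are not separate loci. DLX1 and DLX2 share a widened locus, and DLX1 also had another DMSO domain, of 11.2 kb, at an end. PAX2, a kidney regulator in the similar class, lay at a locus with 41.0 kb (DMSO) and 39.0 kb (CPI-0209) covered, and WT1 at a locus with 36.2 and 58.2 kb. Among 45 signalling ligands 30 were similar, 5 widened (WNT3A, WNT9A, BMP8A and FGF18 among them), 4 new (WNT4, WNT8B, TGFB1 and TGFB3) and 2 narrowed (WNT10A and WNT16). The locus at WNT3A covered 17 and 27 kb. WNT16, counted as narrowed, had EZH2 within 2 kb of its ends in DMSO only.

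Of the 14 genes for PRC2 itself and the H3K27 demethylases, 5 had new EZH2, 4 narrowed, 3 similar and 2 none. Over all genes these shares were 19.4%, 13.6%, 32.6% and 25.9%. The new loci were at EZH1, the paralogue of EZH2 (1.0 kb), the histone-binding subunit RBBP7 (2.6 kb), the accessory factors PHF1 (2.2 kb) and PHF19 (6.8 kb), and the demethylase KDM6A (2.4 kb). The core subunit EED went from 4.8 to 1.4 kb, RBBP4 from 5.0 to 3.0 kb, and the accessory subunits JARID2 from 9.2 to 4.8 kb and MTF2 from 13.0 to 5.6 kb. EZH2 (3.8 and 3.4 kb), the PRC2-associated protein EPOP (6.2 and 6.0 kb) and the demethylase KDM6B were similar, and the core subunit SUZ12 and AEBP2 had no call. The KDM6B locus covered 60.8 and 59.4 kb, and within it the widest domain at the gene's ends went from 24.6 to 8.4 kb. Of the 14, 2 carried H3K27me3 in DMSO, beside 31.3% of all genes.

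Genes of other chromatin complexes were also spread over several classes. The shares over all genes were 32.6% similar, 19.4% new and 13.6% narrowed. In the 19 genes of PRC1, the complex that ubiquitinates histone H2A, 8 were similar (RING1, RNF2, PCGF1 and PCGF2 among them), 7 new (PCGF3, PCGF6, CBX7 and PHC2 among them), 1 narrowed (BMI1, 5.6 to 2.8 kb) and 1 no longer called (PHC1, 3.2 kb). In the 21 SWI/SNF remodeller genes 6 were new (ARID1B, SMARCB1, SMARCC1 and SMARCD1 among them), 6 similar, 4 narrowed (ARID1A, ARID2, SMARCC2 and BRD9), 1 widened (SMARCD2) and 1 no longer called (DPF3). Another CPI-0209 domain, of 4.6 kb, touched an end of DPF3. PHF10, counted as new, also had a DMSO domain of 2.2 kb at an end. ARID1A, a tumour suppressor in bladder cancer, lay at a locus that went from 12 to 5.0 kb. Other CPI-0209 domains, of 7.8 kb at ARID1A and 15.2 kb at BRD9, touched an end of these genes.

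Housekeeping genes had the largest share of narrowed loci of the 20 lists. Of 35, 13 were narrowed, 14 similar, 7 new and 1 widened, beside 13.6%, 32.6%, 19.4% and 5.99% of all genes. EZH2 was called at an end of all 35 in CPI-0209 and of 28 in DMSO, beside 71.5% and 54.6% of all genes. H3K27me3 was called at 1 of them in DMSO and 0 in CPI-0209, beside 31.3% and 21.7%. GAPDH, a glycolytic enzyme, went from 10.6 to 6.8 kb, PPIA from 12 to 5.6 kb, SDHA from 5.2 to 2.8 kb, and B2M, the MHC class I light chain, from 6.8 to 1.6 kb. HPRT1, GUSB, EEF2 and EMC7 were new, at 1.6, 3.0, 15.6 and 1.2 kb. ACTB was similar, with 12.6 and 12.4 kb. Housekeeping genes are transcribed in most cells.

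**Figure D5:**
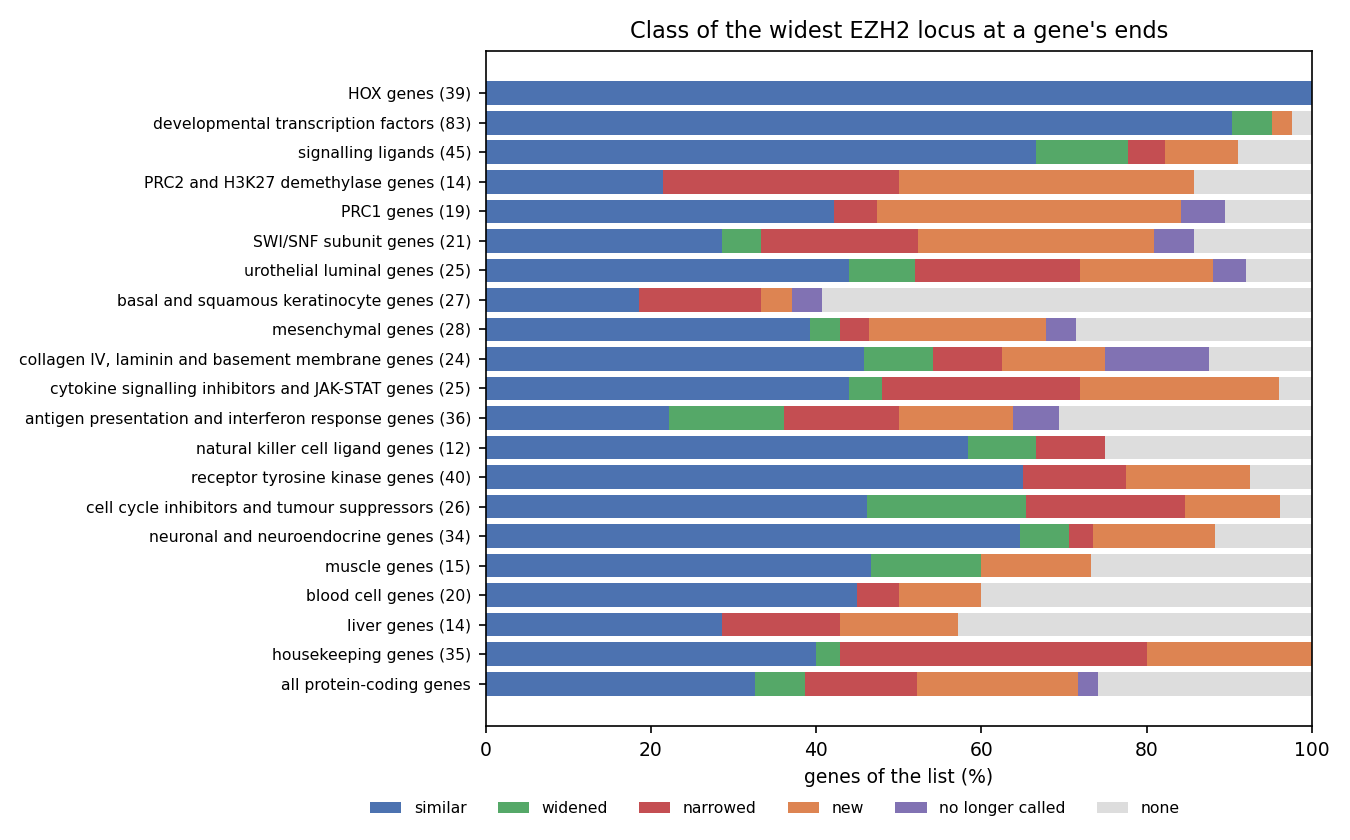
Percent of the genes of each list (number of genes in brackets) by the class of the widest EZH2 locus within 2 kb of their ends, with all protein-coding genes at the bottom. HOX genes are wholly similar, housekeeping genes have 13 of 35 narrowed, and 16 of 27 keratinocyte genes have no locus.

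Epithelial lists were split, beside 32.6% similar, 13.6% narrowed and 19.4% new over all genes. Of 25 urothelial luminal genes 11 were similar (UPK1A, KRT19, GATA3 and FOXA1 among them), 5 narrowed (KRT18, KRT8, PPARG and ERBB3 among them), 4 new (UPK2, UPK3A, UPK3B and CYP2J2), 2 widened (GRHL3 and CDH1), 1 no longer called (UPK1B) and 2 without EZH2 (KRT20 and SNX31). PPARG, a luminal nuclear receptor, went from 11.4 to 3.0 kb, and UPK1B, a uroplakin of the bladder surface, had 10.2 kb in DMSO alone. Of 27 basal and squamous keratinocyte genes 16 had no EZH2 in either list, among them KRT5, KRT6B, KRT6C and KRT16, beside 25.9% of all genes. Another 5 were similar (KRT14, KRT6A, KRT1 and CDH3 among them), 4 narrowed (DSC3, CD44, EGFR and IVL), 1 new (S100A8) and 1 no longer called (SPRR1B). EGFR, the epidermal growth factor receptor, went from 16.6 to 4.8 kb.

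Immune and cytokine genes were spread over the classes. All genes were 32.6% similar, 5.99% widened, 13.6% narrowed, 19.4% new and 25.9% without EZH2. Of 36 antigen presentation and interferon response genes 8 were similar (HLA-B, HLA-E and TAP1 among them), 5 widened (HLA-C, IRF7, ISG15 and CCL5 among them), 5 narrowed (B2M, HLA-DPA1, HLA-DPB1 and IRF1 among them), 5 new (HLA-F, PSMB8, NLRC5 and CD74 among them), 2 no longer called (OAS1 and IFI44L) and 11 without EZH2. IRF7, an interferon regulatory factor, went from 6.4 to 25.4 kb. Within 2 kb of their ends, ISG15 and CCL5 had EZH2 in CPI-0209 only and HLA-DPB1 in DMSO only. Of 25 cytokine signalling inhibitors and JAK-STAT genes, 11 were similar, 6 narrowed (SOCS6, PIAS1, PTPN2 and JAK1 among them), 6 new (SOCS5, SOCS7, CISH and PIAS3 among them) and 1 widened, SOCS1. CISH also had a DMSO domain of 7.0 kb at an end, apart from its new locus. STAT4 had no EZH2. Of 12 ligands of natural killer cell receptors, MICA (14.4 and 13.2 kb), MICB (62.6 and 61.6 kb), ULBP2, ULBP3, RAET1G, RAET1L and NCR3LG1 were similar, ULBP1 was narrowed (12.8 and 5.6 kb), NECTIN2 was widened (1.2 and 3.4 kb), and RAET1E, PVR and CD48 had no EZH2.

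Growth control and matrix lists were most often similar, beside 32.6% of all genes. Of 40 receptor tyrosine kinase genes 26 were similar (ERBB2, ERBB4, FGFR1 and FGFR2 among them), 6 new (MST1R, INSR, TYRO3 and TIE1 among them), 5 narrowed (EGFR, ERBB3, FLT3 and IGF1R among them) and 0 widened. Of 26 cell cycle inhibitors and tumour suppressors 12 were similar (CDKN1A, CDKN1C, CDKN2A and CDKN2B among them), 5 widened (CDKN2D, NF2, RASSF1 and GADD45B among them), 5 narrowed (CDKN1B, CDKN2C, RB1 and TSC1 among them) and 3 new (TSC2, NF1 and SLIT3). CDKN1A, the p53-responsive inhibitor, measured 5.2 and 3.8 kb. Of 24 basement membrane genes 11 were similar, 3 new (LAMB1, LAMB3 and NID2), 3 with a locus no longer called (COL4A3, COL4A5 and COL4A6), 2 widened (LAMA1 and AGRN) and 2 narrowed (COL4A4 among them). COL4A5 and COL4A6 share 1 DMSO domain of 0.6 kb, and COL4A3 still had a CPI-0209 domain of 1.4 kb at an end.

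Lists for other tissues had between 4 of 14 (liver) and 22 of 34 (neuronal) genes in the similar class, beside 32.6% of all genes. Neuronal and neuroendocrine genes gave 22 of 34 similar, 5 new, 2 widened and 1 narrowed. Of the new ones, SYP and ENO2 also had a DMSO domain at an end, of 5.2 and 2.4 kb. SLC17A6, counted as similar, had EZH2 within 2 kb of its ends in DMSO only. Mesenchymal genes gave 11 of 28 similar, 6 new (VIM, FN1, SNAI1 and COL1A2 among them), 1 widened (COL1A1), 1 narrowed, 1 no longer called (SNAI2) and 8 without EZH2. The locus of COL1A1, a fibrillar collagen, went from 42.0 to 64.6 kb, and SNAI2, a driver of epithelial-mesenchymal transition, had 15.0 kb in DMSO alone. Muscle genes gave 7 of 15 similar and 0 narrowed, and blood cell genes 9 of 20 similar and 8 without EZH2. Of 14 liver genes, 6 had no EZH2 (ALB, TTR, AFP, CYP3A4 and FGB among them), 4 were similar (APOA1, HNF4A, FOXA2 and CYP2E1), 2 new (SERPINA1 and F2) and 2 narrowed (APOB and TF).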

How the data were processed

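The lists deposited for the 4 ChIP libraries have, per the file headers, only columns of positions (chromosome, start, end) and hold no score, count or p-value. The positions are in hg38. The submitters' processing notes name BWA and SICER, with neither version nor role. Settings, depth and the use of the input are not given in the sources used here. Starts in the lists count from 0, and coordinates are printed counting from 1. All positions fell on steps of 200 bp (0 exceptions), on 22 autosomes and the X chromosome.

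Merging, joining into loci and all shares were computed with Python 3.11.15, numpy 2.4.6, pandas 2.3.3 and scipy 1.17.1, and the scripts were checked on simulated lists. A locus is on H3K27me3 where it shares at least 1 bp with an H3K27me3 interval. Windows of 2 kb either side of gene ends came from a RefSeq gene table (GRCh38.p14), and starts, strands and sequences from a RefSeq promoter table for 79.2% of coding genes. Lengths printed at list members are the covered lengths of their widest locus unless a domain is named. A gene can have other domains at its ends. Exons were not told apart.

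The members, classes and gene lists were chosen with earlier results of these data known. Named loci were, for each class, the 5 with the largest covered length (similar, new, no longer called) or the largest difference (widened, narrowed) within 2 kb of a coding gene end, with up to 3 genes each. List members were named in list order, up to 4 for each outcome, and all members in lists of 14 or fewer. A few genes that this rule would name are not reported here. The printed sequences, segments, single list widths and genes beyond this rule, such as EHF, were chosen after their values were seen. The alternatives tried were other overlap, gap, ratio, width and window settings, a shortened CPI-0209 list, and stretches under 2 rows.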

Additional observations from a re-analysis of the deposited data

How the results depend on the processing

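No paired analysis was possible because each group has 1 library. Over stretches under 2 rows of a list there were 2256 similar, 711 narrowed and 1084 loci no longer called, and 3658 genes with EZH2 in both lists, 967 in DMSO only and 11891 in neither. Such stretches kept 4 of the 25 named loci in their class. With the narrowest CPI-0209 domains dropped until both lengths were equal, narrowed loci numbered 961, new loci 3775 and loci no longer called 7781. The ratio of gene starts under EZH2 was then 0.611, with 29.5% covered in CPI-0209 and 48.3% in DMSO. Dropping domains from the CPI-0209 list alone could only lower this ratio and the count of new loci. It could only raise the count of loci no longer called. How far these values moved was not fixed. The ratio of gene starts, tried after seeing the data, was 1.38 with all rows. Widened loci numbered 2986 with the lower ratio tried and 774 with a ratio of 2, where narrowed loci numbered 1835. The share near gene ends with a window of 1 kb was 54.9% for similar, 37.3% for new and 19.0% for loci no longer called. With 5 kb it was 59.5% for similar, 57.1% for widened, 69.4% for narrowed, 44.7% for new and 26.7% for no longer called. With all gene records it was 73.4%, 70.7%, 79.1%, 54.9% and 40.0% in the same order, and narrowed loci stayed highest. With 50% of the locus under DMSO H3K27me3 the share was 70.0% for similar, 57.2% for widened, 31.0% for narrowed and 47.4% for new. Joining gaps under 5 kb, leaving out domains under 2 kb and a 50% overlap left each class count within 1.5 times. Depth is unknown and limits every call.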

Other observations

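The classes were spread unevenly over the chromosomes. New loci made up between 33.3% of CPI-0209 domains on chromosome 5 and 54.5% on the X chromosome, with 47.0% on chromosome 19 and 46.0% on chromosome 22. Loci no longer called made up between 7.94% of DMSO domains on chromosome 20 and 17.6% on chromosome 3. These are values of 1 library a condition.

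Away from gene ends, the widest loci no longer called and the widest new loci differed in H3K27me3. The intergenic DMSO domains nearest to SNX13 (134.8 kb), AHR (76.8 kb), F3 (68.0 kb) and AGR3 (67.6 kb) had none of the mark in either condition. New loci in the bodies of SNX29 (60.8 and 56.6 kb) and ANKH (58.4 kb) were under DMSO H3K27me3 over 99.3%, 100% and 93.2% of their length, and under CPI-0209 H3K27me3 over 0%, 0% and 16.8%.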
